A study of Homo sapiens with 7 samples.

Results

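The polyamine pathway and antizyme genes are a set of 8 genes, ODC1, OAZ1, OAZ2, AZIN1, AMD1, SAT1, SMS and SRM, taken by gene symbol from the 20072 rows of the deposited table, of which 20056 hold values. All 8 symbols had a row. They were measured in HCT116, an established human colorectal carcinoma cell line, grown in log phase in serum-free medium with epidermal growth factor, insulin and transferrin. The labels name no other genotype or treatment, and the 3 groups differ in what was read. Transcription rate (TR) was read by GRO-seq, which labels the RNA being extended by polymerases in nuclei taken from the cells, in 2 libraries. mRNA abundance (RA) was read by RNA-seq in 3 libraries, and translation activity (TA) by sequencing the mRNA of the polysome fraction in 2 libraries. The cells for TA, unlike the others, were incubated with cycloheximide, an inhibitor of translation elongation, before they were harvested. Following the study, log2(RA/TR) is called the stability index and log2(TA/RA) the translation index.

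Polyamines (putrescine, spermidine and spermine) are small polycations that bind RNA and DNA and are needed for cell growth. ODC1, ornithine decarboxylase, makes putrescine, AMD1, S-adenosylmethionine decarboxylase, makes the aminopropyl donor, and the synthases SRM and SMS use that donor to make spermidine and spermine. SAT1 acetylates spermidine and spermine for export or breakdown. The antizymes OAZ1 and OAZ2 bind ODC1 and send it to the proteasome, while AZIN1, an ODC1-like protein without enzyme activity, binds antizyme in its place. Several of these mRNAs are known for control at translation, since antizyme is made only when ribosomes change reading frame, and that change is favoured by polyamines.

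The sites at which the antizyme frame changes are shown because they are the sequence feature that sets OAZ1 and OAZ2 apart from the other members. In the reference annotation (GENCODE release 44 on GRCh37, the same build as hg19) the coding exons of both genes leave out a single base, the T of a TGA stop codon. The last codon of the first frame and the stop codon after it are in capitals, 5′ to 3′ on the strand of the gene. The OAZ1 site lies at chr19:2271428-2271457 on the plus strand with position 2271442 left out, and the OAZ2 site at chr15:64983699-64983728 on the minus strand with position 64983714 left out.
OAZ1 frameshift site: ctcggtggtgcTCCTGAtgcccctcaccca
OAZ2 frameshift site: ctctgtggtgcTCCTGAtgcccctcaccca
The 2 sites are alike at 29 of 30 positions. Of 19869 canonical transcripts in the annotation, 76 have a gap of 1 base between exons.

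AMD1 is known for a short upstream reading frame near the cap whose peptide stalls ribosomes when polyamines are abundant. It lies in the 5′ UTR at chr6:111195999-111196019 on the plus strand and is shown with its start and stop codons in capitals.
AMD1 upstream reading frame: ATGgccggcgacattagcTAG
The frame is 21 bases long and starts after the first 11 bases of the canonical transcript. A complete upstream reading frame of at most 21 bases, ATG to the first stop codon in frame within the 5′ UTR, was found in 17.8% of 13096 expressed genes with a canonical transcript.

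Values are RPKM (reads scaled by exon length and library size) as deposited, so levels of different genes can be set side by side per length. RPKM is a share of a library, and in these bulk samples fewer cells of a type and less RNA per cell cannot be told apart. Library sizes worked out from the values were 3391897 and 5629982 reads for TR, 20299018 to 22532134 for RA, and 22421062 and 30805391 for TA. The members held 63 to 2118 reads in a TR library, 1203 to 22755 in an RA library and 940 to 8602 in a TA library, so counting error weighs most on TR. The colon epithelium markers EPCAM, CDH1, KRT8 and KRT18 were above 1 RPKM in RA, 4 of 6 in all. VIL1 reached at most 0.0355 RPKM in an RA library and CEACAM5 was listed at 0 in every RA library. Of 6 markers of other cell types only COL1A1 was above 1 RPKM in RA, at a mean of 11.5 RPKM, and the 6 summed to 10.3 to 14 RPKM in RA libraries, 16.9 to 20.2 in TR and 3.42 to 4.68 in TA. The 6 epithelium markers summed to 454 to 538 RPKM in TR, 1091 to 1536 in RA and 2975 to 3261 in TA. The part of these markers in the results was not tested.

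ODC1 and its regulators spanned a wide range of RPKM. ODC1 stood at 51.9 and 58.8 RPKM in TR, 170 (169.8), 153 and 128 (127.7) RPKM in RA, and 47.8 and 55.4 RPKM in TA. OAZ1 had 141 (140.5) and 129 RPKM in TR, 500.4, 359 and 404 RPKM in RA, and 137 and 239 RPKM in TA. For both genes every RA library was above every TR and TA library. OAZ2, the less abundant antizyme, had 25.8 and 33.5 RPKM in TR, 59.5, 50.6 and 41.4 RPKM in RA, and 15.8 and 22.4 RPKM in TA, with no overlap between the groups. AZIN1, the antizyme inhibitor, had 55.2 and 62.7 RPKM in TR, 77.5, 87.9 and 93.8 RPKM in RA, and 53.4 and 53.3 RPKM in TA. Its TA libraries were below both TR libraries, by less than 2 RPKM at the nearest pair, and its RA libraries were the highest.

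AMD1 was the 1 member with RA below TR in every library. It had 38.9 and 47.9 RPKM in TR, 28.2, 30.2 and 29.1 RPKM in RA, and 14.6 and 15.6 RPKM in TA, so its level stepped down from TR to RA to TA without overlap. The spermine synthase gene SMS had the lowest TR, at 10.1 and 13.1 RPKM, with 39.4, 47.9 and 47.0 RPKM in RA and 24.8 and 35.3 RPKM in TA. Those TR values rest on 63 and 136 reads, with exact Poisson 95% intervals of 7.76 to 12.9 and 11 to 15.5 RPKM that cover counting error only. Both intervals lay below every RA and TA value of SMS. The spermidine synthase gene SRM had 38.9 and 36.1 RPKM in TR, 63.1, 41.9 and 57.4 RPKM in RA, and 26.0 and 45.2 RPKM in TA. Its TA libraries straddled TR and 1 of them was above the lowest RA library. SAT1, the acetyltransferase, had 241 and 317 RPKM in TR, 368, 851 and 662 RPKM in RA, and 235 and 310.1 RPKM in TA. Its RA libraries differed 2.31-fold among themselves, the widest spread of any member in any parameter, yet all were above its TR and TA libraries.

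**Figure D1:**
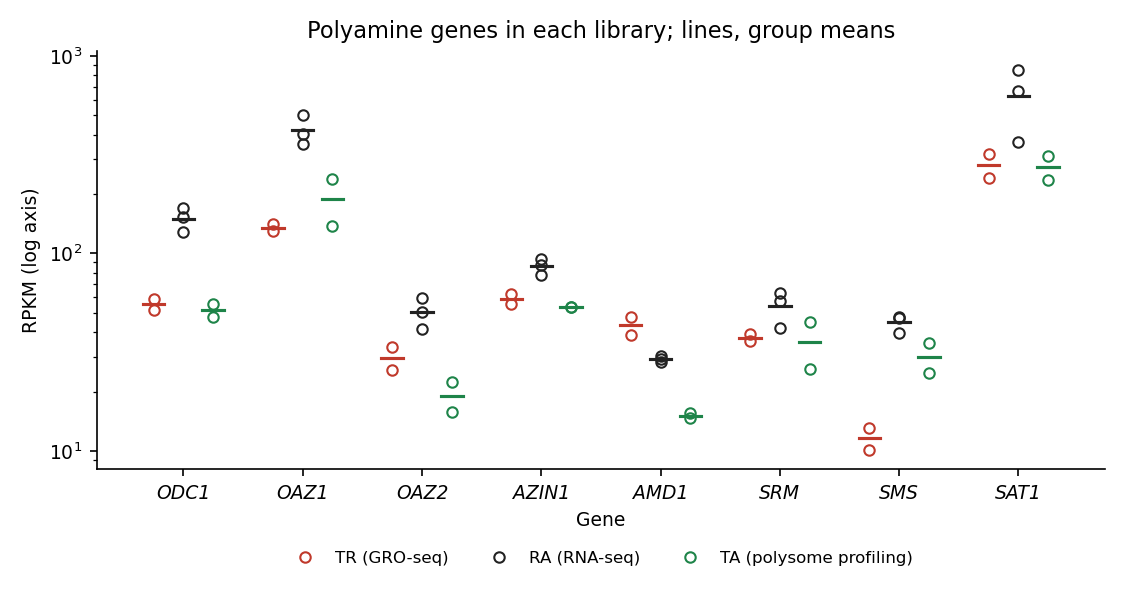
RPKM (log scale) of the 8 genes in each library of TR, RA and TA, with 1 point per library and a line at the group mean. AMD1 steps down from TR to RA to TA, SMS is lowest in TR, and ODC1, OAZ1, OAZ2, AZIN1, SAT1 and SMS have every RA library above the others.

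The order of the mean levels changed between parameters mainly through AMD1 and SMS. In TR, SAT1 at 279 ± 53.7 RPKM (SD, n = 2) was followed by OAZ1 at 135 ± 8.03, then AZIN1 at 58.9 ± 5.28 and ODC1 at 55.4 ± 4.93, AMD1 at 43.4 ± 6.36 and SRM at 37.5 ± 1.96, OAZ2 at 29.6 ± 5.49 and SMS at 11.6 ± 2.15 RPKM. AZIN1 and ODC1 overlapped in their libraries, as did AMD1 and SRM, while the other neighbours did not. In RA, SAT1 at 627 ± 243 RPKM (SD, n = 3) and OAZ1 at 421 ± 72.3 overlapped, ODC1 followed at 150.2 ± 21.2 and AZIN1 at 86.4 ± 8.23, SRM at 54.1 ± 11, OAZ2 at 50.5 ± 9.03 and SMS at 44.8 ± 4.70 overlapped with their neighbours, and AMD1 was last at 29.2 ± 0.98 RPKM. In TA, SAT1 at 273 ± 52.9 RPKM (SD, n = 2) and OAZ1 at 188 ± 71.7 overlapped, as did AZIN1 at 53.4 ± 0.086 with ODC1 at 51.6 ± 5.34 and SRM at 35.6 ± 13.5 with SMS at 30.1 ± 7.41. OAZ2 at 19.1 ± 4.66 RPKM and AMD1 at 15.1 ± 0.67 RPKM were the lowest in TA. SAT1 was 24.0-fold above SMS in TR, 21.5-fold above AMD1 in RA and 18.0-fold above AMD1 in TA. Against the median of the 14305 expressed genes (14.2 RPKM in TR, 8.94 in RA and 6.34 in TA), 7 members were above it in TR and all 8 in RA and TA. SMS was at percentile 42.1 of these genes in TR and 87.4 in RA, whereas AMD1 went from percentile 88.4 in TR to 79.7 in RA and 68.4 in TA.

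The stability index sets the mRNA level against the rate of transcription. In this comparison 6 of the 8 members were higher in RA than in TR, 1 was lower and 1 did not pass the threshold (limma on log2(RPKM + 0.1), Benjamini-Hochberg adjusted p under 0.05 over 14305 genes). Among all genes tested 19.2% were called higher and 48% lower. With at least 1 RPKM required in each parameter, 2632 of 10825 genes were called higher and 3656 lower, and again 6 members higher and 1 lower. The study describes RA as tending to lie above TR for highly expressed genes, and all 8 members were above the median RA of expressed genes. The part of expression level in these calls was not tested. The median index of the members was 0.93 on the log2 scale, and that of all genes tested was -0.58. Without a test, 7 members had every RA library above every TR library, against 24.3% of all genes, and AMD1 had every RA library below, against 54.9%.

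Among the enzymes that build polyamines, SMS had the highest stability index, 1.94 (SE 0.21), a 3.85-fold difference with a limma adjusted p of 9.03e-05. ODC1, the first enzyme of the pathway, was 2.70-fold higher in RA than in TR, with an index of 1.43 (SE 0.19, limma adjusted p = 0.000269). SRM, the other synthase, had an index of 0.51 that was not called (limma adjusted p = 0.132), with a 95% interval from -0.12 to 1.14. AMD1 alone was called lower, 1.48-fold, with an index of -0.56 (SE 0.16, limma adjusted p = 0.0142). At that value AMD1 sat at percentile 50.5 of all genes tested, in the middle of the table. AMD1 kept this call in 14 of 17 alternatives. When each library was centred on its median, the AMD1 index was -0.28 and no longer called (limma adjusted p = 0.161), and that of SRM was 0.79 and called (limma adjusted p = 0.0251). In that fit 7 members were called higher and none lower, beside 25.5% and 41.1% of all genes. Without TR replicate 2 the AMD1 call was also lost (index -0.41, limma adjusted p = 0.0618).

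Of the genes that regulate ODC1, OAZ1 was 3.09-fold higher in RA than in TR, an index of 1.63 (SE 0.29, limma adjusted p = 0.0014). Its paralog OAZ2 was 1.70-fold higher, an index of 0.76 (SE 0.23, limma adjusted p = 0.02). AZIN1 was 1.46-fold higher, an index of 0.55 (SE 0.17, limma adjusted p = 0.0191). OAZ2 kept its call in 15 of 17 alternatives and AZIN1 in 14. The calls of OAZ2 and AZIN1 were lost without TR replicate 1, at limma adjusted p of 0.161 and 0.0752, and that of AZIN1 also without RA replicate 3, at 0.0736. SAT1, which acetylates polyamines for export or breakdown, was 2.14-fold higher with an index of 1.1 (SE 0.39, limma adjusted p = 0.0348). This was the least stable call of the comparison, kept in 8 of 17 alternatives, and the limma adjusted p rose to 0.217 without TR replicate 1, 0.105 without TR replicate 2, 0.0659 without RA replicate 2, 0.0908 without RA replicate 3, 0.0527 without TA replicate 1 and 0.0512 without TA replicate 2. ODC1, OAZ1 and SMS kept their calls in 17 of 17 alternatives.

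**Figure D2:**
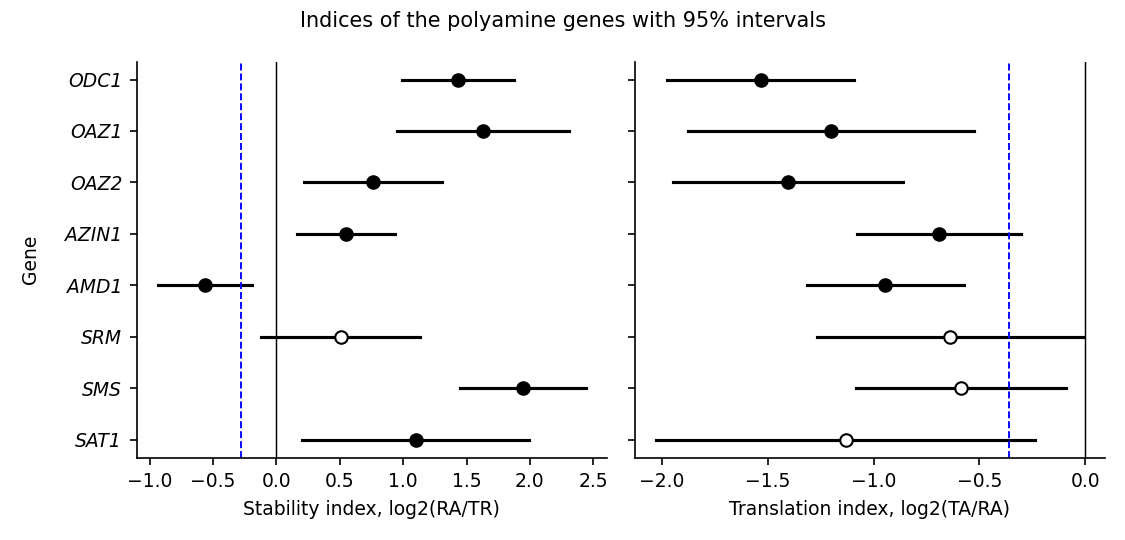
Stability index, log2(RA/TR), in the left panel and translation index, log2(TA/RA), in the right panel for each gene on the log2(RPKM + 0.1) scale, with 95% intervals from limma. Filled points passed an adjusted p of 0.05, and the dashed line marks the shift of the library medians. ODC1, OAZ1 and SMS have the highest stability indices, AMD1 alone is below 0, and ODC1 and OAZ2 have the lowest translation indices.

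The translation index sets the mRNA found with polysomes against all mRNA. No member was higher in TA than in RA, and none had every TA library above every RA library, as 14.4% of all genes did. ODC1, OAZ1, OAZ2, AZIN1 and AMD1 were lower (5 of 8), and SAT1, SMS and SRM did not pass the threshold. Among all genes tested 29.2% were called lower and 6.66% higher. The median translation index was -1.04 for the members and -0.37 for all genes tested, and 7 members, all but SRM, had every TA library below every RA library, against 43.8% of all genes. The translation and stability indices share the RA libraries, so a high RA value raises the stability index and lowers the translation index of the same gene.

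ODC1 had the lowest translation index of the members, -1.53 (SE 0.19, limma adjusted p = 0.00311), a 2.89-fold difference that placed it at percentile 5.31 of all genes tested. OAZ2 followed at -1.41 (SE 0.23, limma adjusted p = 0.00501), 2.65-fold lower in TA and at percentile 7.72. AMD1 was 1.92-fold lower, with an index of -0.94 (SE 0.16, limma adjusted p = 0.00523). These 3 calls were kept in 17 of 17 alternatives. After each library was centred on its median they were the 3 members called lower, with indices of -1.18 for ODC1 (limma adjusted p = 0.00701), -1.05 for OAZ2 (limma adjusted p = 0.0145) and -0.59 for AMD1 (limma adjusted p = 0.0319), and 14.1% of all genes were called lower in that fit and 14.7% higher.

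OAZ1, the major antizyme, was 2.30-fold lower in TA than in RA, with an index of -1.20 (SE 0.29, limma adjusted p = 0.017). OAZ1 kept this call in 11 of 17 alternatives. Its TA libraries differed 1.74-fold from each other, and without TA replicate 1 the index was -0.80 and not called (limma adjusted p = 0.139). The call was also lost narrowly without TR replicate 1 (limma adjusted p = 0.0506) or TR replicate 2 (limma adjusted p = 0.0506) and after centring (index -0.84, limma adjusted p = 0.0563). AZIN1 was 1.61-fold lower, with an index of -0.69 (SE 0.17, limma adjusted p = 0.0168), and kept this call in 12 of 17 alternatives. The AZIN1 call was lost after centring (index -0.33, limma adjusted p = 0.181), without RA replicate 3 (limma adjusted p = 0.0649), without TA replicate 1 (limma adjusted p = 0.086) and without TA replicate 2 (limma adjusted p = 0.0701).

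For the other members the interval of the index is wider or nearer to 0. SAT1 had a translation index of -1.13 (limma adjusted p = 0.0532, 95% interval -2.03 to -0.24), SMS of -0.59 (limma adjusted p = 0.0643, interval -1.08 to -0.09) and SRM of -0.64 (limma adjusted p = 0.102, interval -1.27 to -0.01). These calls turned on single libraries, the filter and the tool. SAT1 passed without RA replicate 1 (index -1.47, limma adjusted p = 0.0115), SMS without TA replicate 2 (index -0.84, limma adjusted p = 0.0475), and SRM without RA replicate 2 (index -0.81, limma adjusted p = 0.0493) or without TA replicate 2 (index -1.03, limma adjusted p = 0.0376). In limma voom on the recovered reads, SAT1 (limma adjusted p = 0.0357) and SMS (limma adjusted p = 0.0499) passed as well, and SAT1 also when 1 RPKM was required in each parameter (limma adjusted p = 0.041). After centring none of the 3 passed (limma adjusted p of 0.169 for SAT1, 0.442 for SMS and 0.444 for SRM).

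TA against TR spans both steps, and the members stood mostly near 0 in it. SMS was 2.56-fold higher in TA than in TR, with a log2 ratio of 1.35 (SE 0.24, limma adjusted p = 0.000934). AMD1 was 2.84-fold lower, with a log2 ratio of -1.51 (SE 0.18, limma adjusted p = 9.2e-05). OAZ2 was called lower at the very edge, with a log2 ratio of -0.64 (SE 0.26, limma adjusted p = 0.0499), and kept that call in 3 of 17 alternatives. After centring its log2 ratio was -0.0039 (limma adjusted p = 0.99), and the call was also lost with both other pseudocounts, with the replicate block, in limma voom, with only the 2 groups compared in the fit and under 3 of the 4 other filters. Without 1 library it was lost for TR replicate 1 (limma adjusted p = 0.0692), TR replicate 2 (0.261), RA replicate 2 (0.0574), RA replicate 3 (0.0559) and TA replicate 1 (0.271). Thus 1 member was called higher and 2 lower, where 17% of all genes were called higher and 57.5% lower. The median log2 ratio was -0.12 for the members and -1.08 for all genes tested. By library ranges SMS was apart and higher, against 22.7% of all genes, AMD1, OAZ2 and AZIN1 were apart and lower, against 65.5%, and the other 4 members overlapped.

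ODC1 had a TA against TR log2 ratio of -0.10 (limma adjusted p = 0.676, 95% interval -0.59 to 0.38), AZIN1 of -0.14 (limma adjusted p = 0.508, interval -0.56 to 0.28) and SAT1 of -0.03 (limma adjusted p = 0.948, interval -1.02 to 0.95). OAZ1 had 0.43 (limma adjusted p = 0.256, interval -0.31 to 1.17) and SRM -0.13 (limma adjusted p = 0.709, interval -0.82 to 0.56). The sign of ODC1, AZIN1, SAT1 and SRM in this comparison depended on the scale and was positive after centring, where ODC1 (log2 ratio 0.54, limma adjusted p = 0.0481), AZIN1 (0.50, limma adjusted p = 0.0415) and OAZ1 (1.07, limma adjusted p = 0.0137) were called higher. With SMS these made 4 members higher and AMD1 the 1 lower, where 27.6% of all genes were called higher and 44.3% lower. SMS and AMD1 kept their calls in 17 of 17 alternatives.

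Ratios between members within a library do not depend on how that library was scaled. Differences between groups were tested with a two-sided exact permutation test over libraries that doubles the smaller one-sided p. This exact permutation test cannot go below p = 0.2 for 3 against 2 libraries or 0.333 for 2 against 2, and a test on the absolute difference could not go below 0.1 for 3 against 2, so none of the 18 tests could reach the threshold and the lowest adjusted p was 0.5. The AMD1 to ODC1 ratio was 0.749 and 0.813 in TR, 0.166, 0.197 and 0.228 in RA, and 0.306 and 0.282 in TA. AMD1 was thus somewhat below ODC1 in TR and far below it in RA. The ratio was 3.99-fold lower in RA than in TR (exact permutation p = 0.2, adjusted p = 0.5) and 1.5-fold higher in TA than in RA (exact permutation p = 0.2, adjusted p = 0.5), without overlap in either comparison. The SMS to SRM ratio was 0.26 and 0.363 in TR, 0.623, 1.142 and 0.819 in RA, and 0.955 and 0.782 in TA. It was 2.72-fold higher in RA than in TR without overlap (exact permutation p = 0.2, adjusted p = 0.5), and the TA libraries lay within the range of RA.

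The ratio of OAZ1, which targets ODC1, to ODC1 itself was 2.71 and 2.195 in TR, 2.95, 2.34 and 3.16 in RA, and 2.87 and 4.31 in TA. Its groups overlapped between TR and RA (exact permutation p = 0.4, adjusted p = 0.514) and between RA and TA (exact permutation p = 0.6, adjusted p = 0.635). The OAZ1 to ODC1 ratio was 1.44-fold higher in TA than in TR without overlap (exact permutation p = 0.333, adjusted p = 0.5). The OAZ2 to ODC1 ratio was 0.497 and 0.57 in TR, 0.35, 0.33 and 0.324 in RA, and 0.33 and 0.404 in TA, 1.59-fold lower in RA than in TR without overlap. Between the antizymes, OAZ2 was lower against OAZ1 in every RA library than in every TR library. The OAZ2 to OAZ1 ratio was 0.183 and 0.259 in TR, 0.119, 0.141 and 0.103 in RA, and 0.115 and 0.094 in TA, and was 1.82-fold lower in RA than in TR (exact permutation p = 0.2, adjusted p = 0.5). The AZIN1 to OAZ1 ratio, the inhibitor against its target, was 0.393 and 0.485 in TR, 0.155, 0.245 and 0.232 in RA, and 0.389 and 0.223 in TA. It was 2.11-fold lower in RA than in TR (exact permutation p = 0.2, adjusted p = 0.5), and its TA libraries were too far apart to place it against RA.

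**Figure D3:**
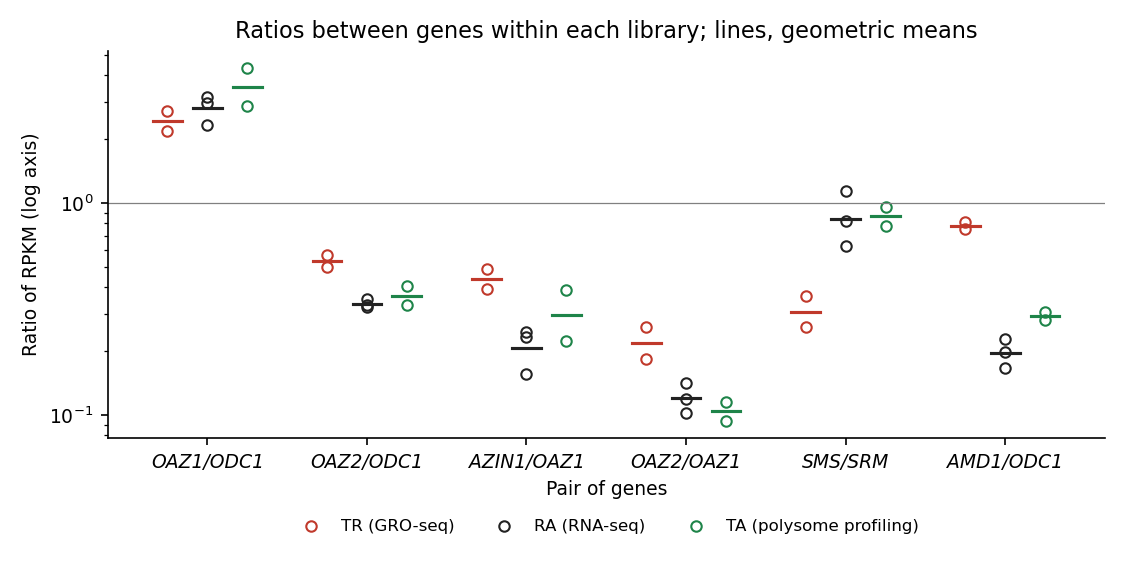
Ratio of RPKM between pairs of genes within each library (log scale), 1 point per library of TR, RA and TA and lines at the geometric means. AMD1/ODC1 drops from 0.749 and 0.813 in TR to 0.166 to 0.228 in RA, and SMS/SRM is higher in every RA than in every TR library. OAZ1/ODC1 overlaps between TR and RA but not between TR and TA.

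The gene whose 7 values lay nearest to each member was sought by Euclidean distance on log2(RPKM + 0.1) among 10817 genes. These were OST4 for ODC1 (distance 0.693), PTMA for OAZ1 (0.791), PTP4A2 for OAZ2 (0.494), CSNK1A1 for AZIN1 (0.448), SLC16A5 for AMD1 (0.325), RPL12 for SAT1 (0.593), VAMP8 for SMS (0.62) and SH3GL1 for SRM (0.357). The distance measures likeness in level as well as in pattern. AMD1 and SRM had the closest neighbours, while OAZ1, ODC1 and SMS were the most isolated.

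Around the members, 27 of 28 listed genes of the wider pathway had a row, and the other symbol, ADC, is an older name. In the stability comparison 11 of the 27 were higher in RA, 6 were lower and 10 did not pass the threshold, beside 19.2% of all genes called higher and 48% lower. The median index was 0.38, and -0.58 for all genes. After centring 15 were higher and 6 lower, beside 25.5% of all genes called higher and 41.1% lower. Of the other polyamine enzymes and antizymes, the oxidase gene SMOX was higher (index 0.71, limma adjusted p = 0.0451), and 3 of 5 were lower, the inhibitor AZIN2 (-1.51), the testis antizyme OAZ3 (-2.80) and the oxidase PAOX (-1.5). The SMOX call was kept in 10 of 17 alternatives and was lost without TR replicate 1 (limma adjusted p = 0.146), TR replicate 2 (0.216), RA replicate 2 (0.108, index 0.47) or RA replicate 3 (0.0651). Among genes of ornithine and methionine supply and salvage, 5 of 11 were higher and 3 lower. AHCY, which clears S-adenosylhomocysteine, had an index of 2.18 and OAT, ornithine aminotransferase, of 1.91. MAT2A, which makes S-adenosylmethionine, the substrate of AMD1, was lower with an index of -2.62, falling from 146 and 147 RPKM in TR to 28.4, 24.9 and 18.8 RPKM in RA. Its regulatory subunit gene MAT2B had an index of 1.19. The arginase gene ARG1 had 4.14 and 6.41 RPKM in TR, 0.0659, 0.119 and 0.0325 RPKM in RA, and was listed at 0 in both TA libraries. EIF5A, the protein that carries the spermidine-derived residue hypusine, had an index of 1.48, not called without TR replicate 2 (limma adjusted p = 0.139), and the transporter gene ATP13A3 of 1.38.

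In the translation comparison 2 of the 27 wider genes were higher in TA, 4 were lower and 21 did not pass the threshold, shares near those of all genes for higher calls (6.66%) and below them for lower calls (29.2%), with no test of the difference. The median index was -0.15, and -0.37 for all genes. After centring 4 were higher and 3 lower, beside 14.7% of all genes called higher and 14.1% lower. In that fit SLC3A2 (limma adjusted p = 0.0378) and GPC1 (limma adjusted p = 0.018) were added to the higher ones and SLC18B1 was no longer called. ARG2, mitochondrial arginase, had 16.7, 34.7 and 28.4 RPKM in RA and 66.9 and 51.1 RPKM in TA, an index of 1.2 (limma adjusted p = 0.0228). OAT had 94.9, 67.8 and 65.1 RPKM in RA and 134 (133.6) and 129 RPKM in TA, an index of 0.81 (limma adjusted p = 0.0251). The lower ones were the transporters ATP13A3 (index -1.38, limma adjusted p = 0.00432) and SLC18B1 (-0.66, limma adjusted p = 0.0196), the second eIF5A gene EIF5A2 (-1.34, limma adjusted p = 0.0121) and MAX, the partner of MYC (-1.28, limma adjusted p = 0.00389). MYC, a transcription factor known to act on ODC1, had 161 and 229 RPKM in TR, 124, 175 and 268 RPKM in RA, and 201 and 317 RPKM in TA, with overlap between all 3 groups. The calls of ATP13A3 and MAX were kept in 17 of 17 alternatives, that of EIF5A2 in 15, those of OAT and SLC18B1 in 11 and that of ARG2 in 10. Without TA replicate 1, 3 of the wider genes were called, with limma adjusted p of 0.139 for ARG2, 0.116 for OAT, 0.0853 for EIF5A2 and 0.0878 for SLC18B1. SLC18B1 had an index of -0.30 after centring (limma adjusted p = 0.229). None of the 5 other polyamine enzymes and antizymes was called in either direction. From TR to TA, 9 of the 27 were higher, 7 lower and 11 not called, beside 17% of all genes called higher and 57.5% lower. The median log2 ratio was 0.18, and -1.08 for all genes. After centring 16 were higher and 5 lower, beside 27.6% of all genes called higher and 44.3% lower.

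**Figure D4:**
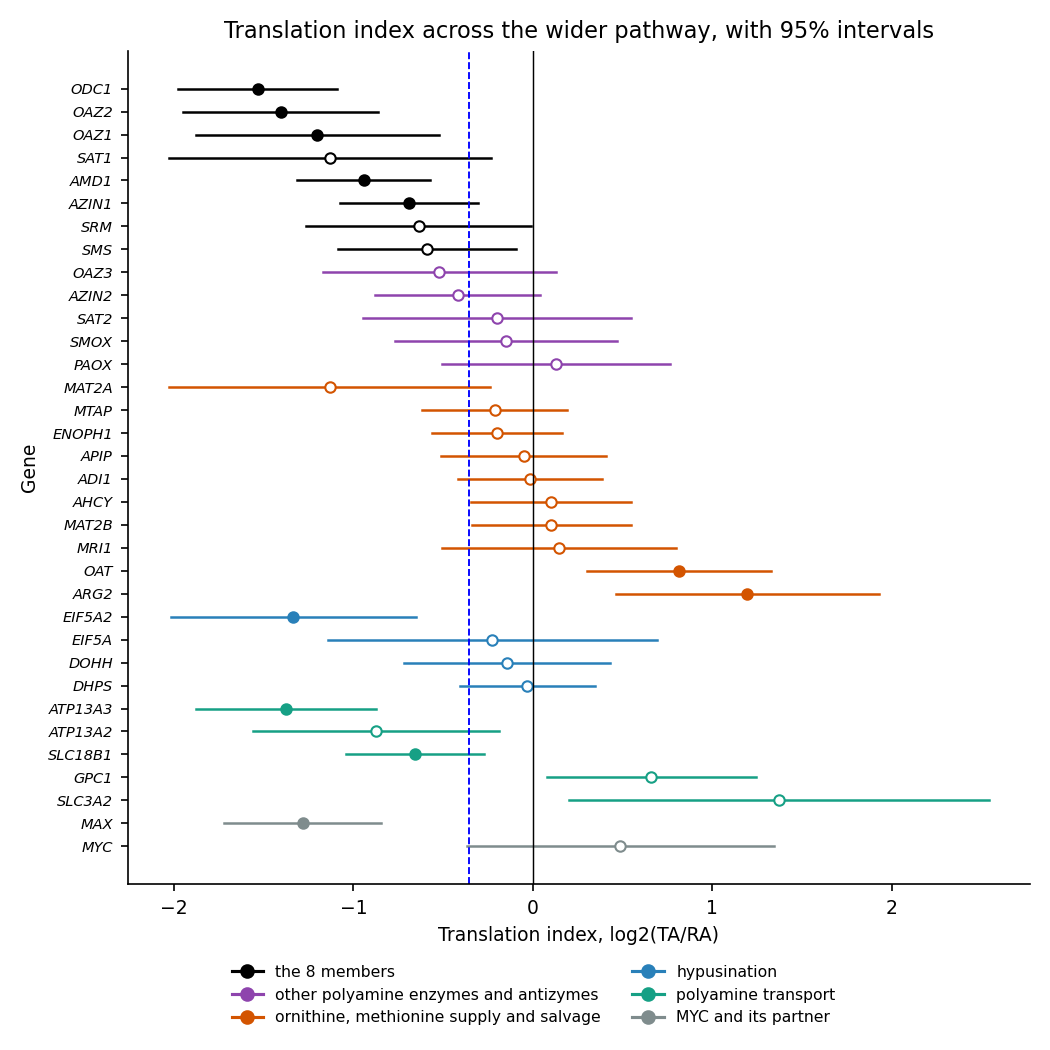
Translation index, log2(TA/RA) on the log2(RPKM + 0.1) scale (x axis), with 95% intervals from limma, for the 8 genes and the wider pathway genes (1 row each, coloured by list, ARG1 left out as it is listed at 0 in TA). Filled points passed an adjusted p of 0.05 and the dashed line marks the shift of the library medians. The 8 genes all lie below 0, and ARG2 and OAT, at 1.2 and 0.81, are the filled points above it.

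The members' transcripts did not share one make-up. UTRs took 27.9% of the canonical transcript of SRM and 35.3% of SMS, against 70.6% of AMD1, 70.5% of OAZ2 and 67.9% of AZIN1, with a median of 47.4% for the members and 49.4% for 13096 expressed genes. ODC1 and OAZ2, which have the lowest translation indices, stand at 44% and 70.5%. A complete upstream reading frame was found in 5 of the 8 members and in 33.9% of expressed genes. There was 1 in ODC1 (33 bases long), AMD1, SAT1 (15 bases long) and OAZ2, and 3 in AZIN1. The OAZ2 frame holds 2 ATG codons in frame, giving 120 and 114 bases to the same stop codon. The first of these ATG codons opens the canonical transcript. OAZ1, SMS and SRM had none. A longer 5′ UTR has more room for such a frame. The 5′ UTRs of the 5 members with a frame were 179 to 590 bases long. Those of OAZ1, SMS and SRM were 79, 116 and 75 bases, and the median of expressed genes was 136. These are descriptions of the annotation, and no relation to the indices was tested.

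ODC1 lies at chr2:10580094-10588453 on the minus strand, OAZ1 at chr19:2269508-2273489 on the plus strand, OAZ2 at chr15:64979772-64995480 on the minus strand and AZIN1 at chr8:103838339-103906092 on the minus strand. AMD1 lies at chr6:111195973-111220082 on the plus strand, SAT1 at chrX:23801290-23804327 and SMS at chrX:21958827-22012955, both on the plus strand, and SRM at chr1:11114641-11120077 on the minus strand. Exons of other genes cover 6.87% of the exon bases of OAZ1, 7.22% of OAZ2, 3.63% of SAT1, 2.59% of AZIN1 and none of the other members. These shares are over all exons annotated in GENCODE release 44. Those are longer than the exon lengths recovered from the deposited values, at 3436 against 1181 bases for OAZ1 and 7671 against 1934 for OAZ2. The overlap within the counted exons was not worked out. Pseudogenes named after the gene are annotated for AMD1 (4), SRM (3), OAZ1 (1) and SMS (1), and pseudogenes under other names were not sought. How reads that match more than 1 place were treated, and whether strand was used in counting, is not given in the sources used here. The values of these genes are uncertain to that extent.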

How the data were processed

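TR, RA and TA of HCT116 cells were analysed in 2, 3 and 2 libraries, grouped by the assay named in the labels. Following the study's methods and the labels, the authors mapped reads to hg19 with TopHat at default settings, counted reads over exons with HTSeq and deposited RPKM values per gene and library. The counting mode, strand setting and gene annotation are not given in the sources used here. No further normalization was applied.

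Library sizes and reads were recovered from the RPKM values, which came out whole (tolerance 0.0001) for 100% of values above 0. The 7 libraries entered a single limma fit (version 3.58.1, R 4.3.3, eBayes with trend) of log2(RPKM + 0.1) over the 14305 genes whose mean reached 1 RPKM in TR, RA or TA, and p-values were adjusted by Benjamini-Hochberg at 0.05. Fold changes are on that scale, which understates changes of low genes. The 14305 genes, called expressed here, are more than the study counted as expressed with a cut-off of 1 RPKM in at least 1 parameter. The source of that difference was not sought. They include genes that reached 1 RPKM in TR alone, such as ARG1. Libraries were compared as deposited, and the library medians over 10825 genes that reached 1 RPKM in TR, RA and TA alike differed by -0.28 (RA against TR), -0.36 (TA against RA) and -0.64 (TA against TR) on the log2 scale, so centred counts are given for each comparison and centred values where they change the call of a member. Ratios within libraries were tested with scipy 1.17.1 under Python 3.11.15. Steps were tested on simulated data. The study calls the libraries of a parameter biological replicates and does not describe how their cultures were kept apart, so p-values measure the spread between these libraries.

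Genes named are the 8 members, the wider pathway lists and the nearest gene of each member. Members and lists were chosen with earlier results of these data known. Transcript features came from canonical transcripts of GENCODE release 44 lifted to GRCh37. Alternatives covered the pseudocount (0.01 and 1), the RPKM threshold (0.5 and 2, none, and 1 in each parameter), median centring, the replicate block, limma voom on recovered reads, only the groups compared, and each library left out.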

Additional observations from a re-analysis of the deposited data

How the results depend on the processing

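Across 17 alternatives, no member changed direction in the stability or translation index. The stability calls of ODC1, OAZ1 and SMS, the translation calls of ODC1, OAZ2 and AMD1, and the TA against TR calls of AMD1 and SMS were kept in all 17. With median centring, 3 members were called in TA against RA and 5 in TA against TR, and the TA against TR log2 ratios of ODC1 (0.54), AZIN1 (0.50), SAT1 (0.61) and SRM (0.51) turned positive. The study describes log-phase cells divided into 3 parts for the 3 assays. It does not say whether same-numbered libraries share a culture. The differences between replicates 1 and 2 correlated at 0.149 (TR and RA), 0.02 (TR and TA) and -0.562 (RA and TA) across 10825 genes. With 1 such difference per assay, these values cannot decide whether the libraries are paired. With the replicate block, 4 members were called in RA against TR and 3 in TA against RA, and 2 wider pathway genes in TA against RA. In all, 1496 genes were called in TA against RA with the block where 5126 were without it. Only RA has a replicate 3, so the block gives the same log2 ratios as leaving out RA replicate 3. For ODC1 in RA against TR the value was 1.54 in both. Limma voom on recovered reads called 7 members in TA against RA and 5469 genes in all. With at least 1 RPKM required in each parameter, 6288 of 10825 genes tested were called in RA against TR, where 9613 of 14305 were without it. Lower calls numbered 3656 with this filter and 6870 without it, and higher calls 2632 and 2743. The cause of these changes was not tested.

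Leaving out 1 library gave 4 (without TR replicate 1) to 7 members called in RA against TR, 3 (without TA replicate 1) to 6 in TA against RA and 2 to 3 in TA against TR, and 3 (without TA replicate 1) to 6 wider pathway genes in TA against RA. All genes called in TA against RA numbered 2006 without TA replicate 1, 3311 without TA replicate 2 and 3227 without RA replicate 3. TA against TR ranged from -0.21 to 0.0036 for ODC1, -0.23 to 0.17 for SAT1 and -0.53 to 0.27 for SRM, each highest without TA replicate 1. The log2 TA against RA difference ranged from -0.021 to 0.27 for the OAZ2 to ODC1 ratio and from -0.16 to 0.27 for the SMS to SRM ratio. Depth limits the TR values most, above all for SMS with 63 and 136 reads.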
